A study of Mus musculus with 16 samples.

Results

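The translation initiation and elongation factors are the 51 genes, of 12012 in the deposited table, whose symbols begin with Eif1 to Eif6 or with Eef1 or Eef2. Kinases and methyltransferases of the factors, eIF4E-binding proteins, the eIF4E transporter and pseudogenes, which share these prefixes, were left out. Of the 51 genes, 45 carry the initiation symbol Eif and 6 the elongation symbol Eef. The symbol alone set the class, so Eif4a3, Eif6 and Eif5a2 are counted with the initiation factors. Eef1e1 was kept with the elongation factors by its symbol, although its protein is a scaffold of the multi-tRNA synthetase complex. Eif5a and Eef1a2 were not analysed here.

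The study measured ribosome-protected fragments (RPF), the pieces of mRNA that a ribosome shields from nuclease, and total RNA from the same kind of cells. Leukaemic cells positive for GFP were sorted from spleens of C57BL/6 mice, recipients of secondary transplants of NOTCH-delta E T-ALL, a leukaemia of T cell precursors caused by an activated Notch receptor. For 3 weeks the mice received diets with 0, 0.4, 0.8 or 8 g/kg valine, an essential branched-chain amino acid, and 8 g/kg was the control. All groups, the control included, carried this leukaemia, and in both fractions a diet was represented by a T-ALL 2 and a T-ALL 3 library. The doses follow the sample characteristics, whereas the treatment protocol mentions drinking water for the intermediate doses. Since the labels leave unsaid whether these numbers mean tumours or mice, a p-value here covers only the variation among the libraries, which may be technical.

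RPF libraries were shallow, with 41848 to 205545 reads recovered from the deposited values, against 364685 to 1269364 reads in total RNA. The shallowest RPF library was the T-ALL 2 control at 8 g/kg. All 10 markers of T cells were in the table, and at most 1 of them was at 0 in any library. Per 10000 reads they took 71.8 to 118 in RPF and 48.4 to 74.6 in total RNA. Neutrophil markers were highest without valine: per 10000 total RNA reads the 10 genes took 2.10 to 4.47 at 0 g/kg, 0.323 to 0.710 at 0.4 g/kg, 0.110 to 0.273 at 0.8 g/kg and 0.130 to 0.165 at 8 g/kg. Of the 10 neutrophil markers, at most 1 was at 0 in a total RNA library at 0 g/kg, and 2 to 7 were at 0 in the libraries at 8 g/kg. In RPF they took 26.5 in the T-ALL 2 library at 0 g/kg, with 0 of the 10 at 0 reads, and 3.16 in the T-ALL 3 library, against 0.239 and 0.420 at 8 g/kg, where 9 and 8 of them were at 0. Erythroid markers (7 of 8 in the table) took 0.156 to 0.280 per 10000 at 0 g/kg and 1.64 to 4.04 at 8 g/kg in total RNA. For these genes RPF gave 0.498 and 2.53 at 0 g/kg against 4.54 and 17.1 at 8 g/kg, the last in the T-ALL 3 control. The valine-free T-ALL 2 and the control T-ALL 3 libraries thus stood apart in RPF, and the part of these cells in the diet comparisons below was not tested.

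Translation starts when eIF2 brings the initiator tRNA to the small ribosomal subunit, eIF1 and eIF1A guide the search for the start codon, and the large complex eIF3 holds the assembly together. The cap-binding factor eIF4E, the scaffold eIF4G and the helicase eIF4A load the mRNA, eIF2B recharges eIF2 with GTP, and eIF5 and eIF5B complete the joining of the subunits. In elongation, eEF1A delivers aminoacyl-tRNAs, the eEF1B complex (Eef1b2, Eef1d and Eef1g) recharges eEF1A, and eEF2 moves the ribosome along by a codon. Amino acid shortage is known to act on this machinery through phosphorylation of eIF2 and through mTOR, which controls mRNAs that begin with a pyrimidine tract (TOP mRNAs), those of ribosomal proteins and of several of these factors among them.

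Because TOP mRNAs are defined by their first bases, the sequence around the annotated start was read for the factors with a RefSeq promoter entry (GRCm38.p6). The window ran from 10 bases before to 20 bases after the start, 30 bases in all, and a tract was a C followed by at least 4 bases that are C or T on the gene's strand. The opposite strand was not counted. Among eIF2 and eIF3 genes not shown, Eif2s1, Eif2s2, Eif3a, Eif3c, Eif3d, Eif3g, Eif3j1 and Eif3m held no such tract. Eif2s3y, Eif3b, Eif3k and Eif3l did hold it. Shown are Eef1a1, Eef2, Eif3f and Eif2s3x as examples with a tract, and Eef1b2 and Eif4a3 as examples without it. Each is written 5′ to 3′ with the longest tract in capitals.
Eef1a1, chr9:78481705-78481734 (-): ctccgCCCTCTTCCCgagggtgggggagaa
Eef2, chr10:81176621-81176650 (+): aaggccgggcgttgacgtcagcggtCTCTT
Eif3f, chr7:108934405-108934434 (+): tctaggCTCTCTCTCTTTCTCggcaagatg
Eif2s3x, chrX:94212632-94212661 (-): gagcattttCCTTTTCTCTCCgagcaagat
Eef1b2, chr1:63176821-63176850 (+): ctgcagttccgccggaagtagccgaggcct
Eif4a3, chr11:119300024-119300053 (-): cgccttacatccggttcccgccgcggcttg
A tract lay in 16 of 40 factors with a window (40%), in 13 of 36 initiation factors and in 3 of 4 elongation factors. Among all 32851 promoter windows of the RefSeq table the share was 35.8%, it was 42.5% among 9122 deposited genes, and 66.1% among 62 cytosolic ribosomal proteins. As a group the factors thus held the tract about as often as the genes of the table. A tract in this window is a match of letters, and an annotated start need not be the start used in these cells.

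In the deposited unit, FPKM (fragments per kilobase, corrected for library size), the factors spanned a wide range. Eef1a1 was the most abundant factor, with a mean of 4447 FPKM in RPF and 10923 FPKM in total RNA (n = 8 libraries each). Eef2 followed, with 1759 FPKM in RPF and 2863 FPKM in total RNA. Among initiation factors the helicase gene Eif4a1 stood first in both fractions, with means of 624 FPKM in RPF and 709 FPKM in total RNA. The 12 genes of eIF3 other than Eif3j1, a loosely bound subunit, lay between 68.2 FPKM (Eif3i) and 245.5 FPKM (Eif3a) in RPF, and between 164 FPKM (Eif3k) and 387 FPKM (Eif3h) in total RNA. The 5 eIF2B genes were low and close together, from 9.42 to 34.9 FPKM in RPF and from 14.1 to 38.4 FPKM in total RNA. At the bottom stood Eif5a2, the second eIF5A gene, with 2 RPF and 37 total RNA reads over all libraries, and Eif2s3y, the Y-linked eIF2 gamma gene, with 0 RPF and 2 total RNA reads. These 2 genes missed the filter of a mean of at least 1 FPKM in RPF, and Eif2s3y missed it in total RNA too.

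The first comparison asked how much of each factor's mRNA was found under ribosomes, by setting RPF against total RNA over all 4 diets. Differences were taken on the log2(FPKM + 0.5) scale within each of the 8 pairs of libraries and centred on the pair's median over all genes, so that 0 is the middle gene of a pair. Of the 49 factors tested, 25 passed limma's test (adjusted p under 0.05 over 9361 genes), against 16.5% of all genes tested. Of these, 20 were lower in RPF than in total RNA (8.95% of all genes) and 5 were higher (7.56% of all genes). The median difference was -0.62 for the factors and -0.26 for all genes tested. The factors were measured more precisely, with a median SE of 0.20 against 0.47 for all genes. The part of this precision in the number of calls was not tested. In all 8 pairs 18 factors were below 0 and 5 above it, and the share of all genes that did so was not counted.

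Of the 6 elongation factors, 3 were lower in RPF than in total RNA past the test, and Eef1b2 was the lowest. Eef1b2, the nucleotide exchange subunit of eEF1B, had RPF levels of 115 and 188 FPKM at 0, 72.2 and 227 at 0.4, 140.2 and 126 at 0.8, and 109 and 159 FPKM at 8 g/kg, each pair given as T-ALL 2 and T-ALL 3. For Eef1b2 total RNA stood at 981 and 868 FPKM at 0, 962 and 925 at 0.4, 1021 and 933 at 0.8, and 1052 and 1121 FPKM at 8 g/kg. No RPF library came near the total RNA libraries, and the mean FPKM in RPF was 0.144 of that in total RNA. Relative to the middle gene of each pair RPF ran 5.75-fold lower, at a log2 difference of -2.52 ± 0.21 (SE; limma adjusted p = 0.000228). The gene lies on chromosome 1 from 63176831 to 63180486 (GRCm38.p6).

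Eef1a1, which delivers aminoacyl-tRNA and lies on chromosome 9 from 78478453 to 78481724, had 4560.5 and 4205 FPKM at 0, 3364 and 3807 at 0.4, 4929.8 and 4386 at 0.8, and 6358 and 3963 FPKM at 8 g/kg in RPF. In total RNA it had 11194 and 9684 FPKM at 0, 11034 and 10444 at 0.4, 11007 and 11616 at 0.8, and 11395 and 11010.2 FPKM at 8 g/kg. The fractions did not overlap, and the difference was -0.98 ± 0.12 (SE; limma adjusted p = 0.00182). Eef1g, the eEF1B subunit that anchors the complex, had 298 and 374 FPKM at 0, 218 and 309 at 0.4, 379 and 401 at 0.8, and 520.3 and 271 FPKM at 8 g/kg in RPF. Total RNA of Eef1g gave 707 and 739.7 FPKM at 0, 698 and 665 at 0.4, 742 and 721 at 0.8, and 648 and 660.1 FPKM at 8 g/kg. Eef1g was also lower in every RPF library, at -0.72 ± 0.15 (limma adjusted p = 0.0173), but its adjusted p reached 0.063 without 1 pair of libraries, namely T-ALL 2 at 0 g/kg or either pair at 0.8 g/kg.

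Eef2, the translocase, lies on chromosome 10 from 81176631 to 81182509 and had 1408 and 1785 FPKM at 0, 1458 and 1769.7 at 0.4, 1781 and 2125 at 0.8, and 2035 and 1709 FPKM at 8 g/kg in RPF. For Eef2 total RNA stood at 2744 and 2632 FPKM at 0, 2746 and 2761 at 0.4, 2975 and 2960.4 at 0.8, and 3107 and 2982 FPKM at 8 g/kg. All RPF values were below all total RNA values, yet after centring the difference was only -0.38 ± 0.11 and did not pass (limma adjusted p = 0.0534). Eef1d, another exchange subunit of eEF1B, had 50.5 and 38.7 FPKM at 0, 53.9 and 42.4 at 0.4, 36.7 and 64.7 at 0.8, and 73.8 and 60.5 FPKM at 8 g/kg in RPF and 63.3 and 59.1 FPKM at 0, 65.1 and 67.2 at 0.4, 62.6 and 76.7 at 0.8, and 64.6 and 77.1 FPKM at 8 g/kg in total RNA. Its fractions overlapped, and the difference was -0.04 ± 0.16, with a 95% interval of -0.41 to 0.33. The subunits of eEF1B thus spread from -2.52 for Eef1b2 to -0.04 for Eef1d, with intervals (-3.01 to -2.04 and -0.41 to 0.33) that do not overlap. Eef1e1 rested on 13 RPF reads in all, with levels of 10.8 and 21.4 FPKM at 0, 13.6 and 0 at 0.4, 4.62 and 16.3 at 0.8, and 20.4 and 47.8 FPKM at 8 g/kg in RPF and 47.9 and 30.4 FPKM at 0, 41.6 and 35.5 at 0.4, 40.1 and 23.6 at 0.8, and 26.3 and 50.2 FPKM at 8 g/kg in total RNA. Its difference of -1.45 ± 0.50 did not pass (limma adjusted p = 0.0849).

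**Figure D1:**
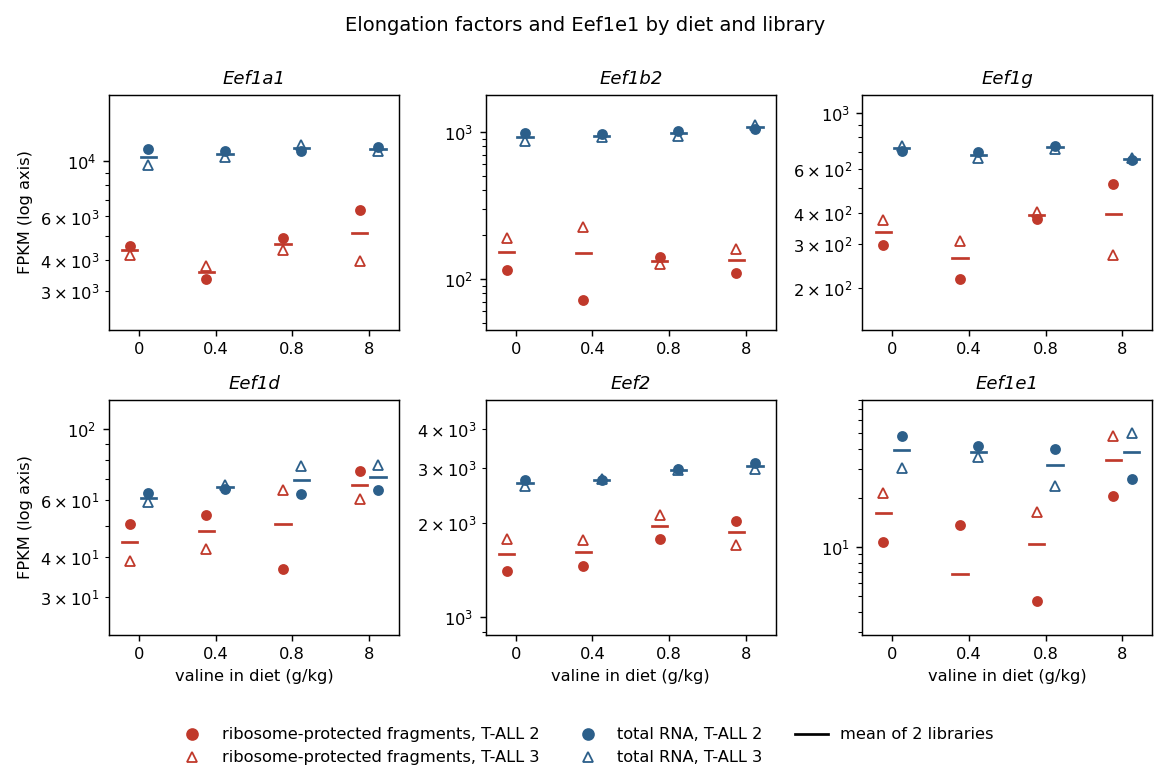
FPKM on a log axis for the 6 genes with Eef symbols against valine in the diet, for ribosome-protected fragments (red) and total RNA (blue), with filled circles for T-ALL 2, open triangles for T-ALL 3 and bars for the mean of the 2 libraries. Eef1b2 shows the widest gap between the fractions, Eef1d overlaps, and the RPF library of Eef1e1 listed at 0 (T-ALL 3 at 0.4 g/kg) cannot be drawn.

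Initiation factors ran in both directions. Of the 5 genes with Eif1 symbols, which act in start codon selection or resemble those that do, 3 were lower in RPF past the test. Eif1, which keeps scanning ribosomes from starting at wrong codons, had 84 and 83.7 FPKM at 0, 26.5 and 45.8 at 0.4, 43.3 and 88.9 at 0.8, and 63.8 and 37.3 FPKM at 8 g/kg in RPF. Its total RNA levels were 228 and 219 FPKM at 0, 239 and 222 at 0.4, 169 and 235 at 0.8, and 176 and 156 FPKM at 8 g/kg. The fractions did not overlap and the difference was -1.55 ± 0.17 (SE; limma adjusted p = 0.00101). Eif1ax at -1.87 ± 0.38 and Eif1ad, an eIF1A-like gene, at -2.58 ± 0.43 passed as well, on 24 and 11 RPF reads. Eif1ax had 0.922 to 12.2 FPKM in RPF and 16.3 to 32.3 FPKM in total RNA, and Eif1ad 0 to 13.5 FPKM in RPF and 14.6 to 25 FPKM in total RNA, both without overlap. Eif1ax lost its call without the T-ALL 3 pair at 0.4 g/kg or the T-ALL 2 pair at 0.8 g/kg (adjusted p up to 0.053). Eif1b at -2.22 ± 0.86 and Eif1a at -0.48 ± 0.58 did not pass, and Eif1a lay above 0 in 4 pairs and below it in 4. Close copies such as Eif1 and Eif1b or Eif1a and Eif1ax could share reads. Eif5, which triggers GTP hydrolysis by eIF2, had 11.2 and 11.2 FPKM at 0, 15.9 and 30.5 at 0.4, 25.2 and 36 at 0.8, and 26.6 and 18.7 FPKM at 8 g/kg in RPF. Total RNA of Eif5 gave 76.3 and 57.7 FPKM at 0, 76.7 and 67.6 at 0.4, 69.2 and 107 at 0.8, and 75 and 79.4 FPKM at 8 g/kg. Every RPF value was below every total RNA value, at -1.53 ± 0.21 (limma adjusted p = 0.00269).

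All 3 eIF2 subunits tested were lower in RPF. Eif2s1, the alpha subunit that carries the regulatory phosphorylation site, had 22.8 and 19.5 FPKM at 0, 35 and 13.3 at 0.4, 36.4 and 12.3 at 0.8, and 6.19 and 14.5 FPKM at 8 g/kg in RPF. In total RNA Eif2s1 had 57.6 and 51 FPKM at 0, 48.6 and 49.5 at 0.4, 42.4 and 44.7 at 0.8, and 44.4 and 57.8 FPKM at 8 g/kg. Eif2s2, the beta subunit, had 37.9 and 24.3 FPKM at 0, 51.2 and 14.8 at 0.4, 41.8 and 20.5 at 0.8, and 15.4 and 9.03 FPKM at 8 g/kg in RPF. The fractions of Eif2s1 and Eif2s2 did not overlap, with total RNA of Eif2s2 at 78.3 and 85.2 FPKM at 0, 89.1 and 81 at 0.4, 76.8 and 97.1 at 0.8, and 70.6 and 67.6 FPKM at 8 g/kg. Eif2s3x, the X-linked gamma subunit, had 45.7 and 21.2 FPKM at 0, 63.4 and 12.5 at 0.4, 62.7 and 73.7 at 0.8, and 17.3 and 47.4 FPKM at 8 g/kg in RPF and 107 and 87.2 FPKM at 0, 98 and 100 at 0.4, 83.7 and 89.2 at 0.8, and 108 and 102 FPKM at 8 g/kg in total RNA, again without overlap. The differences were -1.13 ± 0.25 for Eif2s1, -1.43 ± 0.25 for Eif2s2 and -1.06 ± 0.27 for Eif2s3x (limma adjusted p = 0.0206, 0.00732 and 0.031). Eif2s1 missed the threshold without 1 pair in 5 of 8 cases and Eif2s3x in 6 of 8, with adjusted p up to 0.074 and 0.095. By contrast, 0 of the 5 eIF2B genes passed, with differences from -0.64 for Eif2b3 to 0.17 for Eif2b1. Eif2b5, the catalytic subunit, had 31.4 and 31.2 FPKM at 0, 30.8 and 52.3 at 0.4, 43.4 and 29 at 0.8, and 26.5 and 34.9 FPKM at 8 g/kg in RPF. For Eif2b5 total RNA stood at 38.3 and 32.5 FPKM at 0, 39.8 and 41.8 at 0.4, 37.9 and 33.4 at 0.8, and 38.7 and 45.1 FPKM at 8 g/kg, which overlap with RPF, and the difference was 0.17 ± 0.19. Eif2a, a factor distinct from the alpha subunit of eIF2, was lower at -2.21 ± 0.62 (limma adjusted p = 0.0448) on 32 RPF reads. It had 0 to 18.1 FPKM in RPF and 25.2 to 42.3 FPKM in total RNA, and its call was lost in 6 of 8 fits without 1 pair, with adjusted p up to 0.14, and with a pseudocount of 0.1.

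Subunits of eIF3, which sit in 1 complex, differed among themselves. Eif3a, the largest core subunit, was higher in RPF, with 204 and 141 FPKM at 0, 422 and 190.2 at 0.4, 379 and 203 at 0.8, and 159 and 267 FPKM at 8 g/kg. Its total RNA levels were 189 and 187 FPKM at 0, 172 and 171 at 0.4, 163 and 145 at 0.8, and 171 and 162 FPKM at 8 g/kg. All RPF libraries except the T-ALL 2 control and the valine-free T-ALL 3 library were above every total RNA library, and the difference was 0.77 ± 0.16 (limma adjusted p = 0.0174). It missed the threshold without centring and without the T-ALL 2 pair at 0, 0.4 or 0.8 g/kg, with an adjusted p of at most 0.069 in those 3 fits. Eif3e was lower, with 57.6 and 93.3 FPKM at 0, 90.9 and 108 at 0.4, 102 and 92.6 at 0.8, and 82.1 and 64.1 FPKM at 8 g/kg in RPF. In total RNA Eif3e had 318 and 305 FPKM at 0, 339 and 312 at 0.4, 369 and 351 at 0.8, and 389 and 361 FPKM at 8 g/kg. The fractions of Eif3e were far apart, at -1.67 ± 0.14 (limma adjusted p = 0.000228).

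Of the 13 eIF3 genes, 7 were lower and 1 was higher past the test. After Eif3e the lower ones were Eif3f at -1.45 ± 0.20, Eif3i at -1.13 ± 0.17, Eif3m at -0.94 ± 0.14, Eif3h at -0.93 ± 0.13, Eif3k at -0.85 ± 0.20 and Eif3l at -0.54 ± 0.12. RPF of these 6 genes lay between 14.3 to 97.8 FPKM for Eif3i and 109 to 256 FPKM for Eif3h, and total RNA between 118 to 196 FPKM for Eif3i and 365 to 411 FPKM for Eif3h. Eif3i belongs to the module that also holds Eif3b and Eif3g. Eif3b had 169.6 and 233 FPKM at 0, 231 and 185 at 0.4, 225 and 174 at 0.8, and 265 and 172 FPKM at 8 g/kg in RPF. Total RNA of Eif3b gave 233 and 232 FPKM at 0, 207 and 204 at 0.4, 191 and 242 at 0.8, and 233 and 229.6 FPKM at 8 g/kg, and the fractions overlapped. The members that did not pass were Eif3b (0.22 ± 0.14), Eif3c (0.04 ± 0.13), Eif3d (-0.23 ± 0.14), Eif3g (-0.75 ± 0.22) and Eif3j1 (-0.62 ± 0.44). The call of Eif3k was lost without 1 pair in 6 of 8 cases and that of Eif3l in 4 of 8, with adjusted p up to 0.093 and 0.072. Those of Eif3e, Eif3f, Eif3h, Eif3i and Eif3m were kept without any 1 pair.

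The eIF4 group held 4 of the 5 factors that were higher in RPF. Eif4g1, the main scaffold of cap-dependent initiation, lies on chromosome 16 from 20672720 to 20692883 and had 148 and 124 FPKM at 0, 211 and 161 at 0.4, 192 and 146 at 0.8, and 116 and 166 FPKM at 8 g/kg in RPF. For Eif4g1 total RNA stood at 104 and 111 FPKM at 0, 90.6 and 89.4 at 0.4, 89 and 80.4 at 0.8, and 95.3 and 104 FPKM at 8 g/kg, below RPF in all libraries, and the difference was 1.04 ± 0.13 (limma adjusted p = 0.00137). Its relative Eif4g3 had 43.7 and 74.8 FPKM at 0, 42.2 and 74.5 at 0.4, 46.3 and 40.3 at 0.8, and 36.3 and 42.5 FPKM at 8 g/kg in RPF. In total RNA Eif4g3 had 34.2 and 39.4 FPKM at 0, 26.9 and 32.4 at 0.4, 31.3 and 30.3 at 0.8, and 30.3 and 28 FPKM at 8 g/kg. Eif4g3 was higher in RPF in every pair, at 0.95 ± 0.18 (limma adjusted p = 0.0113), though the lowest RPF library overlapped with the highest total RNA library. Eif4g2, also called Dap5, lacks the part that binds eIF4E and went the other way, with 48.6 and 40.1 FPKM at 0, 48.2 and 28.4 at 0.4, 56.7 and 62 at 0.8, and 44.8 and 44.8 FPKM at 8 g/kg in RPF. Its total RNA levels were 192 and 168 FPKM at 0, 195 and 190.1 at 0.4, 171 and 203 at 0.8, and 217 and 213 FPKM at 8 g/kg. The fractions of Eif4g2 did not overlap, at -1.73 ± 0.13 (limma adjusted p = 0.000154), the lowest adjusted p of any factor. The 95% intervals of Eif4g1 (0.75 to 1.33) and Eif4g2 (-2.03 to -1.43) thus lie on opposite sides of 0.

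The eIF4A helicases differed as well. Eif4a1, the main initiation helicase, had 841 and 437 FPKM at 0, 756 and 464 at 0.4, 801 and 522 at 0.8, and 599 and 573 FPKM at 8 g/kg in RPF. Total RNA of Eif4a1 gave 708 and 659 FPKM at 0, 711 and 738 at 0.4, 694 and 736 at 0.8, and 682 and 739 FPKM at 8 g/kg. Its fractions overlapped, and the difference was 0.11 ± 0.15 (95% interval -0.22 to 0.45). Eif4a2, a close paralogue that may share reads with it, had 73.8 and 53.1 FPKM at 0, 20.7 and 28 at 0.4, 37 and 34.1 at 0.8, and 38.9 and 27.3 FPKM at 8 g/kg in RPF. For Eif4a2 total RNA stood at 86.7 and 97 FPKM at 0, 66 and 70.8 at 0.4, 71.2 and 57.3 at 0.8, and 64.3 and 55 FPKM at 8 g/kg. Eif4a2 lay at -0.60 ± 0.17 (limma adjusted p = 0.0482), with overlap, and lost its call whichever pair was left out (adjusted p up to 0.13), without the filter and with a replicate block. Eif4a3, a helicase of the exon junction complex despite its symbol, was higher, with 199 and 227 FPKM at 0, 306 and 231 at 0.4, 288 and 262 at 0.8, and 251 and 311 FPKM at 8 g/kg in RPF. In total RNA Eif4a3 had 218 and 163 FPKM at 0, 201 and 183 at 0.4, 210.2 and 185 at 0.8, and 169 and 209 FPKM at 8 g/kg, which overlaps only with the T-ALL 2 RPF library at 0 g/kg, and the difference was 0.76 ± 0.12 (limma adjusted p = 0.00416). Eif4b, which stimulates the helicase, had 170.0 and 184 FPKM at 0, 173 and 129.7 at 0.4, 169.5 and 185 at 0.8, and 148 and 141 FPKM at 8 g/kg in RPF and 159.5 and 171 FPKM at 0, 175 and 152 at 0.4, 155 and 161 at 0.8, and 152 and 169 FPKM at 8 g/kg in total RNA, with overlap. Eif4b and the similar Eif4h lay at 0.33 ± 0.11 and 0.41 ± 0.21 and did not pass.

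Among the cap-binding genes, Eif4e had 17.8 and 6.65 FPKM at 0, 28.1 and 12.1 at 0.4, 13.4 and 6.73 at 0.8, and 12.7 and 12.4 FPKM at 8 g/kg in RPF. Its total RNA levels were 23.2 and 22.7 FPKM at 0, 27.8 and 32.3 at 0.4, 21.6 and 35.9 at 0.8, and 27.3 and 33.7 FPKM at 8 g/kg, and the difference of -0.78 ± 0.31 did not pass (limma adjusted p = 0.12). The germ line relative Eif4e1b, on chromosome 13 from 54783994 to 54788459, had 26 and 31.1 FPKM at 0, 13.1 and 28.4 at 0.4, 13.4 and 27.6 at 0.8, and 19.8 and 11.6 FPKM at 8 g/kg in RPF. Total RNA of Eif4e1b gave 2.17 and 2.26 FPKM at 0, 1.44 and 0.687 at 0.4, 2.22 and 0 at 0.8, and 0.41 and 0.608 FPKM at 8 g/kg. Every RPF value of Eif4e1b was above every total RNA value, with 36 reads in the shallow RPF libraries and 15 in the deep total RNA libraries, and its difference of 4.13 ± 0.54 was the highest of all factors (limma adjusted p = 0.00201). Whether these few fragments are footprints on the coding sequence was not tested. Eif4e2 and Eif4e3 lay at -0.08 ± 0.30 and -0.43 ± 0.47 and did not pass.

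Of the late factors, Eif5b, the GTPase of subunit joining, had 32.7 and 31.2 FPKM at 0, 44.9 and 42.7 at 0.4, 39.7 and 16.2 at 0.8, and 21.6 and 23.7 FPKM at 8 g/kg in RPF and 27.9 and 26.6 FPKM at 0, 21.4 and 20.3 at 0.4, 18.2 and 24.2 at 0.8, and 22.2 and 20.9 FPKM at 8 g/kg in total RNA. RPF was higher in 6 of 8 pairs, and the difference of 0.74 ± 0.24 did not pass (limma adjusted p = 0.0705). Eif6, which keeps the large subunit free of the small one, had 29.6 and 29.5 FPKM at 0, 79.4 and 30.3 at 0.4, 41.3 and 89.6 at 0.8, and 70.3 and 16.5 FPKM at 8 g/kg in RPF and 76.2 and 75.5 FPKM at 0, 68.1 and 88.8 at 0.4, 69.4 and 79.1 at 0.8, and 93.9 and 79.4 FPKM at 8 g/kg in total RNA, a difference of -0.57 ± 0.27 that did not pass. Eif2d, which can deliver tRNA independently of eIF2, lay at -1.18 ± 0.56 and did not pass either.

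**Figure D2:**
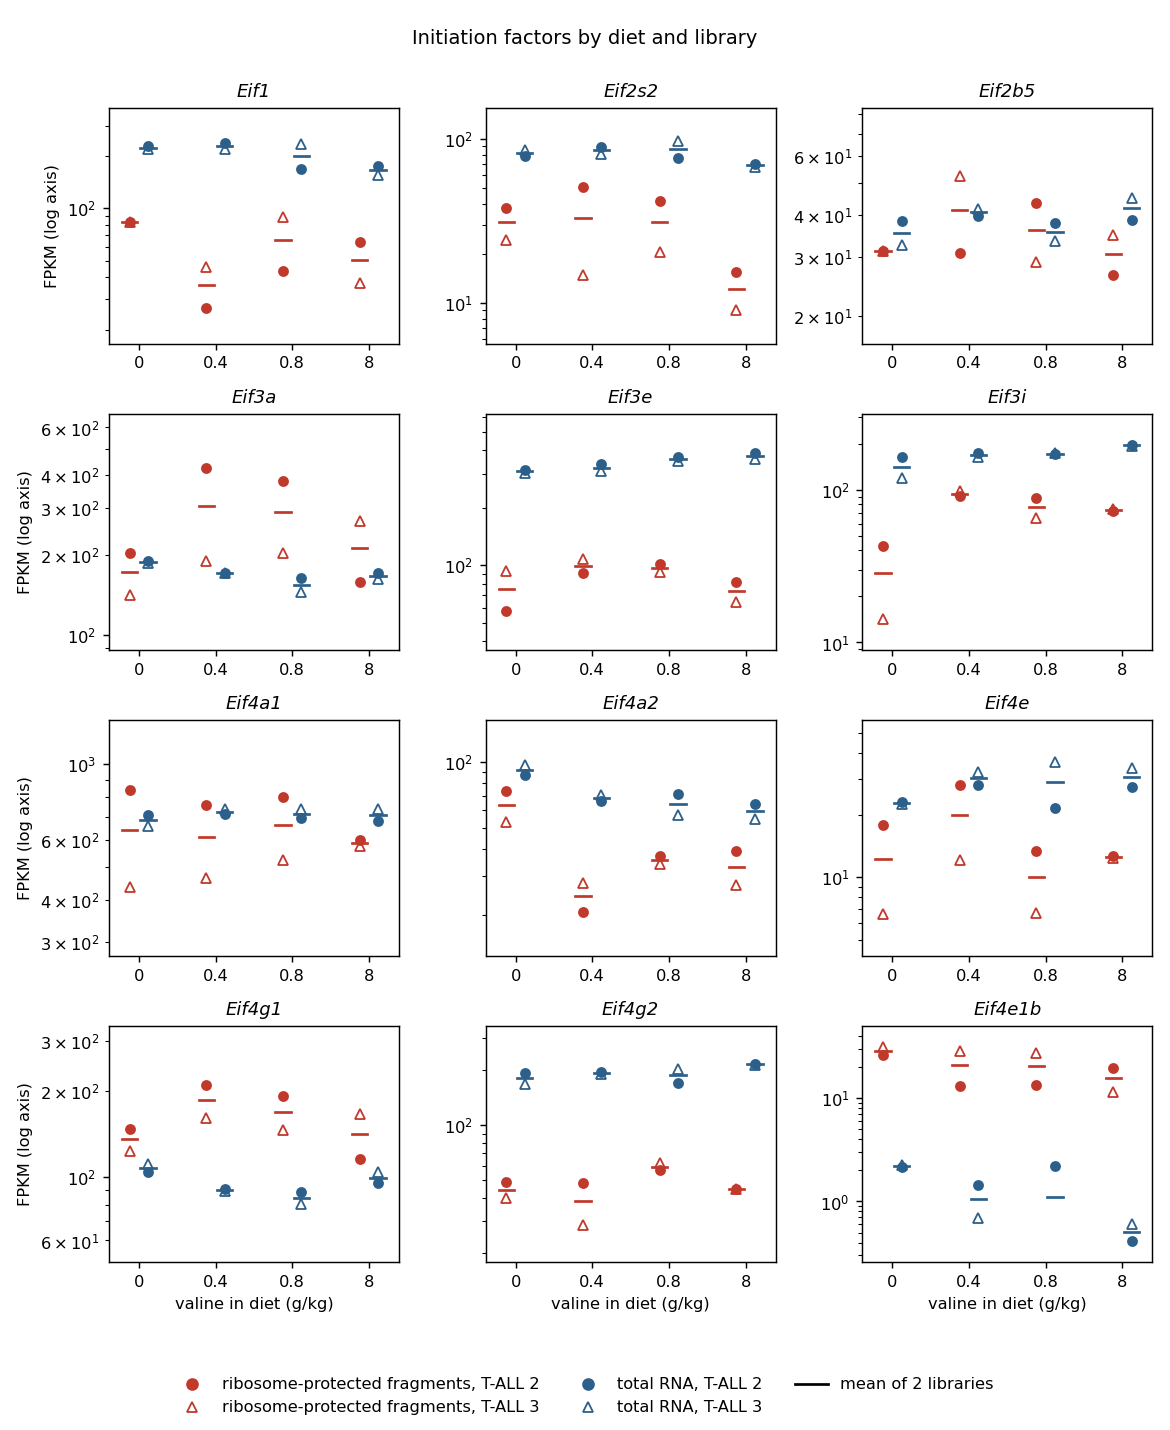
FPKM on log axes for 12 initiation factors against valine in the diet, for ribosome-protected fragments (red) and total RNA (blue), with filled circles for T-ALL 2, open triangles for T-ALL 3 and bars for the mean of the 2 libraries. Eif4g1 and Eif4e1b lie higher in the protected fragments, Eif4g2, Eif3e and Eif1 lower, and the total RNA library of Eif4e1b listed at 0 (T-ALL 3 at 0.8 g/kg) cannot be drawn.

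**Figure D3:**
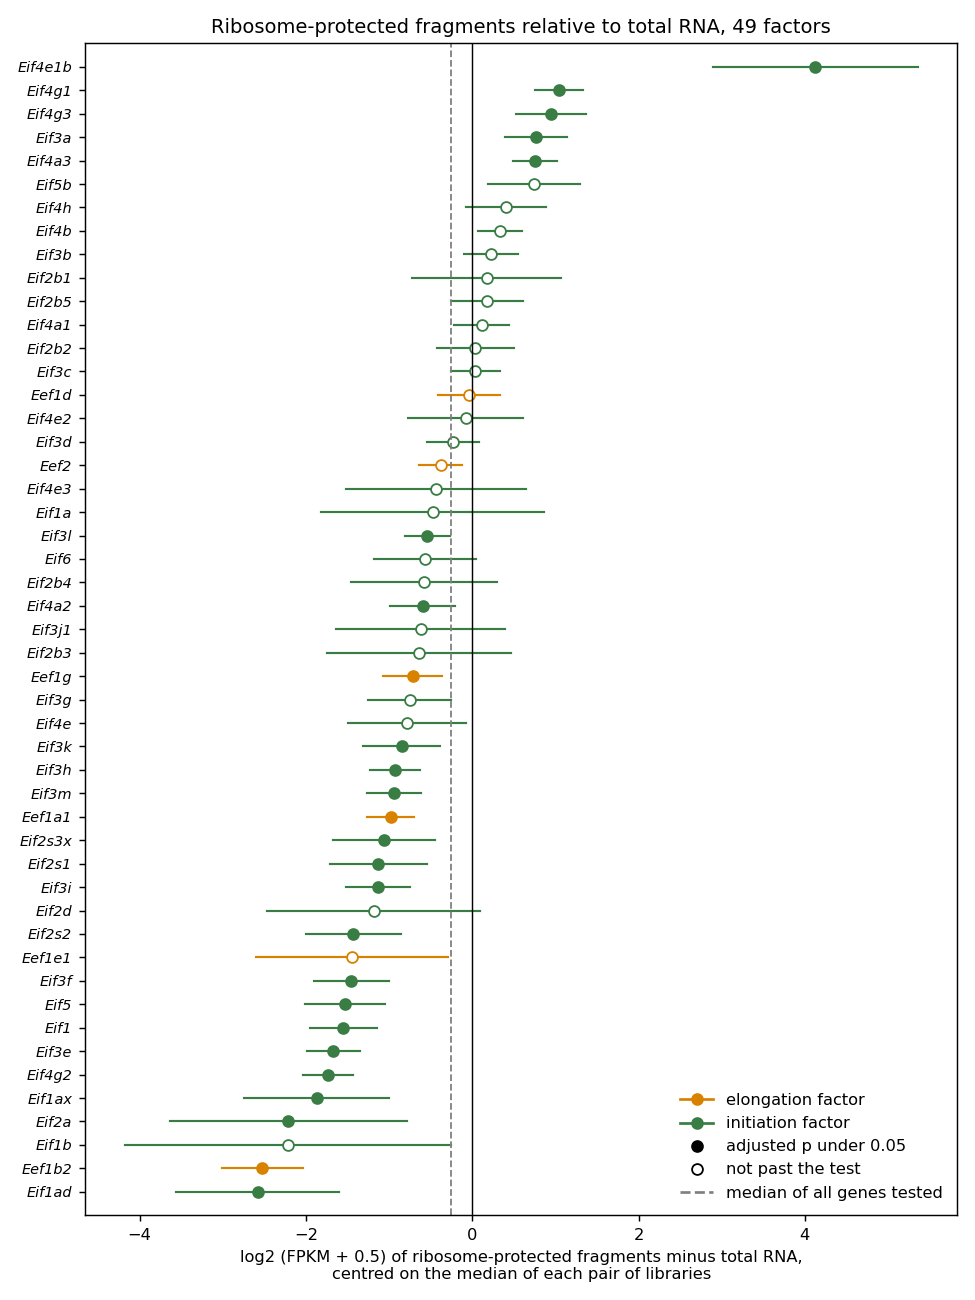
Each row is 1 of the 49 factors tested, with the log2 difference of ribosome-protected fragments minus total RNA over 8 pairs of libraries and its 95% interval; orange marks elongation and green initiation factors, filled points have a limma adjusted p under 0.05, and the dashed line is the median of all genes tested. The factors run from -2.58 for Eif1ad to 4.13 for Eif4e1b, all 6 elongation factors lie at or below -0.04, and 35 of 49 factors lie below 0. The median of all genes tested also lies below 0, at -0.26.

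The values are relative, and total RNA reads cover untranslated regions while footprints lie mainly on coding sequence. The part of untranslated regions in a difference between the fractions was not tested. The length of a gene, as the deposited FPKM imply it, moved with the difference: Spearman's rho was 0.33 across 9361 genes and 0.21 across the 49 factors, whose libraries are shared. Leaving out 1 pair gave 17 to 25 calls, where 7.83% to 16.3% of all genes were called. Voom, which models the recovered reads, called 33 factors, among them all 25, and 27.9% of all genes.

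Initiation and elongation factors overlapped as groups. Of 43 initiation factors tested, 17 were lower and 5 higher, with a median of -0.60. Of 6 elongation factors, 3 were lower and 0 higher, with a median of -0.85. Cytosolic ribosomal proteins, whose mRNAs are the best known TOP mRNAs, lay lower than either, with 77 of 81 tested genes lower past the test and a median of -1.63. Factors with a tract in the window shown above had a median of -0.54 (15 tested, -2.58 to 1.04), and those without one had -0.62 (23 tested, -2.52 to 0.95). The tract could lie anywhere in that window, as at position 16 from the start in Eef2, so these medians do not set TOP mRNAs against others. Genes listed under termination, ribosome recycling and poly(A) binding were lower in 8 of 12 tested genes and higher in 0, with a median of -1.24. Regulators of the factors, such as eIF2 kinases, eIF4E-binding proteins and the eEF2 kinase, were higher in 2 of 27 and lower in 0, with a median of -0.20. Mitochondrial translation factors were lower in 1 of 10, with a median of -1.12. The lists differed in precision, so their counts of calls are not on equal terms. The median SE was 0.57 for mitochondrial factors, 0.44 for regulators, 0.30 for the termination list and 0.15 for ribosomal proteins.

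Summed over genes, elongation factors outweighed initiation factors in both fractions, by less in RPF. The ratio of summed FPKM, elongation over initiation, was 1.23 to 2.64 in RPF (1.92 ± 0.39, SD, n = 8) and 2.76 to 3.06 in total RNA (2.89 ± 0.097, SD, n = 8). The ranges did not overlap. By diet the RPF ratio averaged 1.94 ± 0.14 at 0, 1.65 ± 0.60 at 0.4, 1.86 ± 0.15 at 0.8 and 2.24 ± 0.57 at 8 g/kg (SD, n = 2 each). In total RNA it averaged 2.83 ± 0.034, 2.81 ± 0.059, 3.00 ± 0.083 and 2.94 ± 0.080 in the same order of diets (SD, n = 2 each). The RPF libraries of 1 diet differed by as much as the diets, and in total RNA the diets lay from 2.81 to 3.00. In RPF, elongation factors took 1.14% to 2.17% of reads and initiation factors 1.03% to 1.36%. In total RNA the shares were 2.79% to 3.02% for elongation and 1.32% to 1.42% for initiation factors. Without Eef1a1 the ratio was 0.429 to 0.800 in RPF and 0.825 to 0.933 in total RNA, again without overlap.

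**Figure D4:**
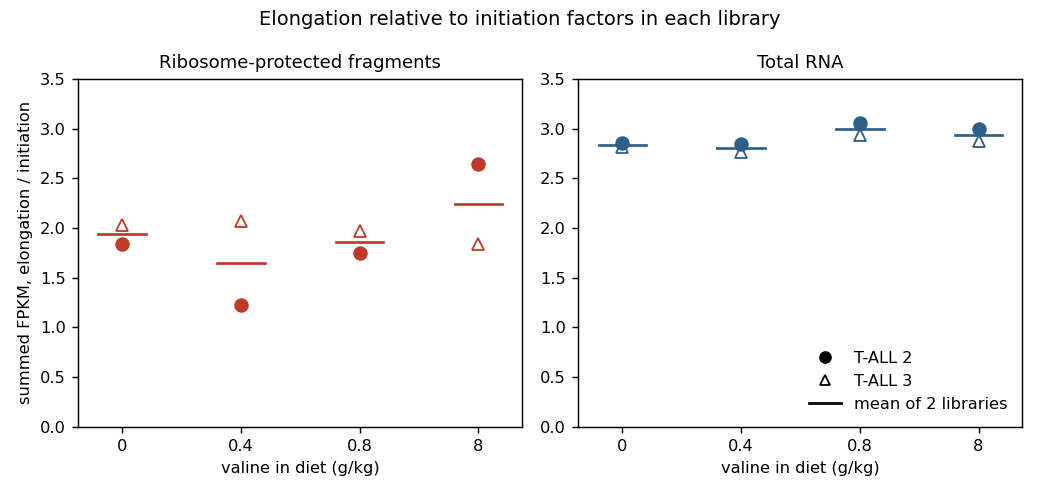
Ratio of summed FPKM of the 6 elongation to the 45 initiation factors in each library against valine in the diet, for ribosome-protected fragments on the left and total RNA on the right, with circles for T-ALL 2, triangles for T-ALL 3 and bars for the mean of 2 libraries. All 8 RPF libraries lie below the 8 total RNA libraries, and no dose stands outside the spread of the RPF libraries.

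The second question was whether the factors changed when valine was short. In total RNA no factor passed limma's test at any dose: 0 of 50 tested were called at 0, 0.4 or 0.8 against 8 g/kg, where 0% of 10054 genes were called in each. With limma's voom 0 factors were called as well. Limma gave an unadjusted p under 0.05 to 5 factors at 0 g/kg (6.58% of all genes), 3 at 0.4 g/kg (3.09%) and 0 at 0.8 g/kg (3.45%). All 3 comparisons share their 2 control libraries. In bulk samples such as these, fewer cells of a type and less RNA per cell cannot be told apart.

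The factor with the lowest adjusted p at 0 g/kg was Eif4a2, whose total RNA levels are given above. Both libraries at 0 g/kg (86.7 and 97 FPKM) were above both controls (64.3 and 55 FPKM), with a log2 change of 0.62 ± 0.18 (SE) that did not pass (limma adjusted p = 0.538). Eif1 had 228 and 219 FPKM at 0 g/kg and 176 and 156 FPKM at 8 g/kg, a log2 change of 0.43 ± 0.17. Eif3g had 217 and 224 FPKM at 0 g/kg and 177 and 163 FPKM at 8 g/kg, at 0.38 ± 0.13. These 3 genes lay above both controls, and their limma adjusted p ranged from 0.538 to 0.702. On the other side stood Eif3i, with 163 and 118 FPKM at 0 g/kg and 196 and 194 FPKM at 8 g/kg (-0.49 ± 0.17). Eif2a had 25.2 and 26.7 FPKM at 0 g/kg and 37 and 42.3 FPKM at 8 g/kg (-0.60 ± 0.24). Neither passed (limma adjusted p = 0.646 and 0.702), although both libraries were below both controls in each.

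Elongation factors moved little in total RNA. At 0 g/kg the log2 changes were -0.11 ± 0.10 for Eef1a1, -0.24 ± 0.11 for Eef1b2, -0.21 ± 0.18 for Eef1d, -0.18 ± 0.09 for Eef2, 0.14 ± 0.10 for Eef1g and 0.07 ± 0.37 for Eef1e1 (SE). The 95% intervals of all 6 lay within 1 log2 unit of 0, so changes of 2-fold lie outside the intervals. For Eef2 the interval was -0.38 to 0.02 and for Eef1a1 -0.33 to 0.12. Eef2 and Eef1b2 were below both controls at all 3 lower doses, and Eef1g was above both at all 3. The 3 doses were set against the same 2 controls, and the share of all genes on 1 side at all 3 was not counted.

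More factors lay below both controls than above them at each of the lower doses. At 0 g/kg, 10 of 50 factors had both libraries above both controls (16.1% of all genes) and 19 had both below (20.3%). The numbers were 12 above (18.4%) and 17 below (19%) at 0.4 g/kg, and 5 above (13.8%) and 12 below (17.8%) at 0.8 g/kg. Those below made up 38% of the factors at 0 g/kg and 34% at 0.4 g/kg, beyond the share of all genes, and 24% at 0.8 g/kg. Factors had a median log2 change of -0.11 at 0 g/kg, -0.05 at 0.4 and -0.05 at 0.8 g/kg, beside -0.04, -0.01 and -0.03 for all genes. Cytosolic ribosomal proteins had a median of -0.15 at 0 g/kg, with 78 of 81 tested genes lower and 3 higher. Initiation factors had medians of -0.11, -0.05 and -0.05, and elongation factors -0.14, -0.08 and -0.03, so elongation minus initiation was -0.04, -0.03 and 0.02. These medians rest on single libraries: that of the factors at 0 g/kg was -0.20 without its T-ALL 2 and -0.01 without its T-ALL 3 library. At 0.4 g/kg it lay between -0.12 without the T-ALL 2 control and 0.01 without the T-ALL 3 control, and at 0.8 g/kg between -0.08 without the T-ALL 2 control and -0.0048 without the T-ALL 2 library of that diet. With an interval within 1 log2 unit of 0 stood 41 of 50 factors at 0 g/kg, 45 at 0.4 and 44 at 0.8 g/kg.

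At 0.4 g/kg the other factors named by the smallest unadjusted p were Eif1 at 0.47 ± 0.17, Eif2b1, a regulatory subunit of eIF2B, at -0.97 ± 0.35 and Eif4e3 at -1.23 ± 0.51. Eif5a2 had the largest change, -1.46 ± 0.74, on few reads. At 0.8 g/kg they were Eif2s2 at 0.32 ± 0.17 and Eif2b2, another regulatory subunit, at -0.46 ± 0.23. None passed (limma adjusted p = 1 for Eif2b1 and 1 for Eif2s2).

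Across the 4 doses in rank order, a trend in total RNA was called for 0 of 50 factors and 0% of all genes, and 8 factors had an unadjusted p under 0.05 by limma (6.79% of all genes). Rising with valine were Eif3i at 0.15 ± 0.05 log2 per dose step, Eif3e at 0.09 ± 0.03, Eif3f at 0.11 ± 0.04, Eef1b2 at 0.08 ± 0.03 and Eef2 at 0.06 ± 0.03 (SE), none past the adjusted threshold. Eif3e illustrates their size, with 318 and 305 FPKM at 0, 339 and 312 at 0.4, 369 and 351 at 0.8, and 389 and 361 FPKM at 8 g/kg in total RNA. Pointing the other way were Eif4a2 at -0.20 ± 0.06, Eif1 at -0.15 ± 0.05 and Eif3g at -0.11 ± 0.04, and the lowest adjusted p was 0.565, for Eif4a2.

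**Figure D5:**
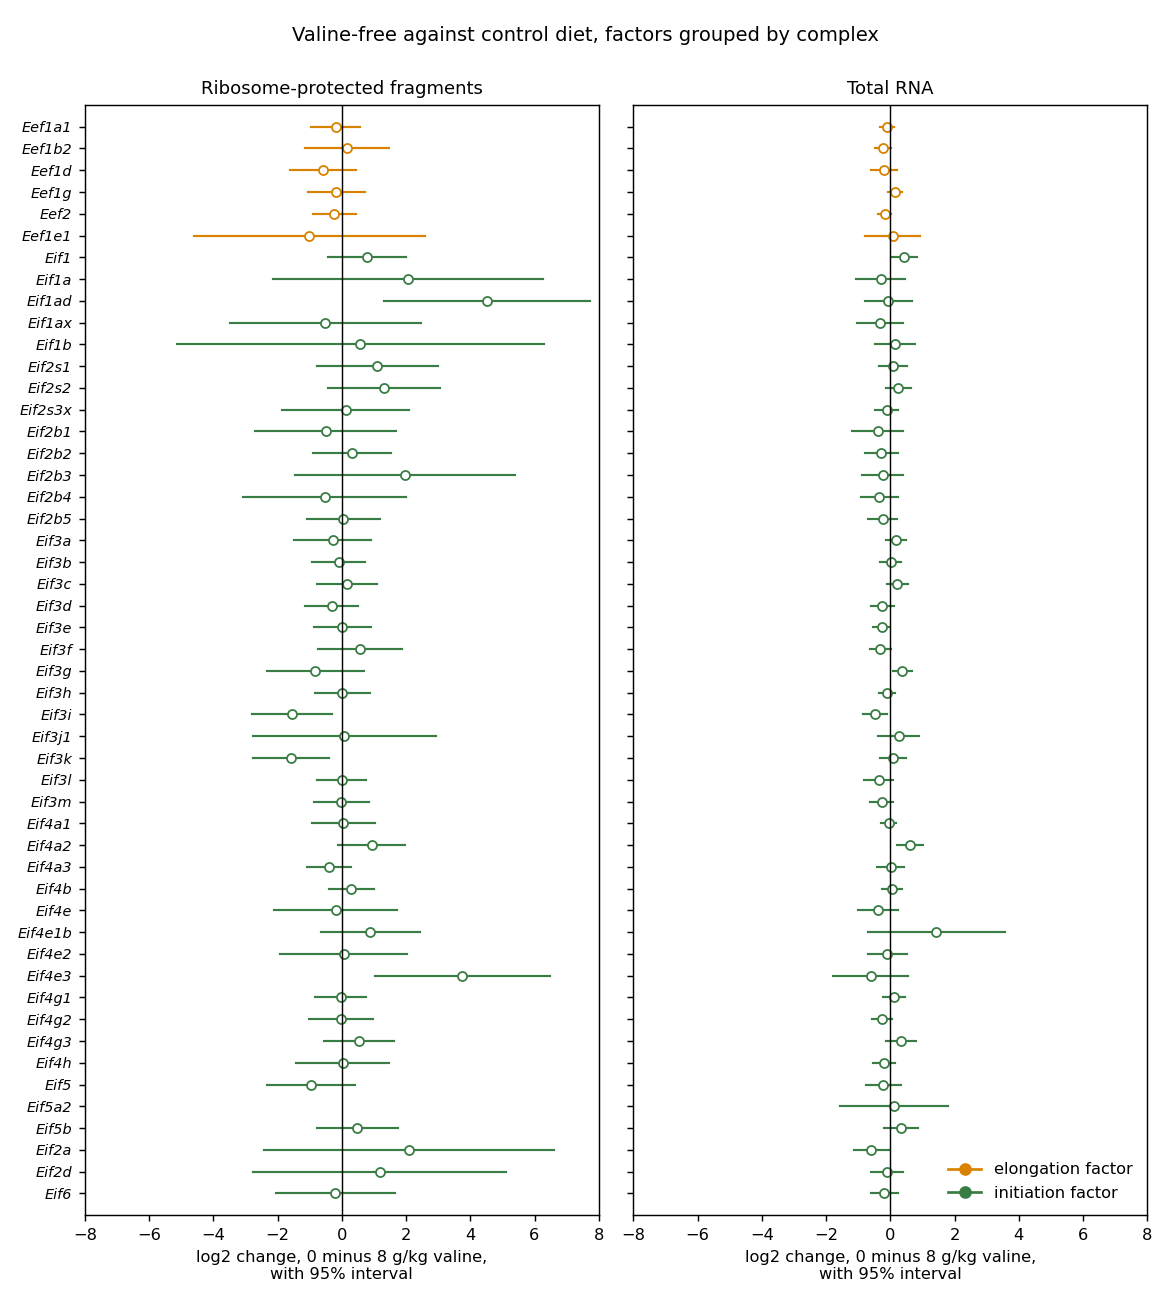
Log2 change at 0 against 8 g/kg valine for each factor tested, with 95% intervals, in ribosome-protected fragments on the left (49 factors) and total RNA on the right (50 factors), ordered by complex with elongation factors (orange) above initiation factors (green). Open points mark that no factor passed limma's test; total RNA intervals are narrow, with 41 of 50 within 1 log2 unit of 0, whereas 9 of 49 are so in the protected fragments.

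RPF gave the same count at lower precision. Limma called 0 of 49 factors at 0, 0.4 or 0.8 against 8 g/kg, where 0% of 9718 genes were called in each, and voom called 0 factors. Limma gave an unadjusted p under 0.05 to 4 factors at 0 g/kg (7.17% of all genes), 1 at 0.4 g/kg (6.67%) and 3 at 0.8 g/kg (5.58%). Intervals lay within 1 log2 unit of 0 for only 9, 5 and 8 of the 49 factors at the 3 doses, so for most factors the interval took in a 2-fold change of ribosome occupancy in at least 1 direction. Well-covered factors had wide RPF intervals too: Eef1a1, with 451 to 1855 reads in every RPF library, had an SE of 0.33 in RPF and 0.10 in total RNA for the change at 0 g/kg.

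Eif3i and Eif3k were the lower factors at 0 g/kg. Eif3i had 43 and 14.3 FPKM at 0, 90.4 and 97.8 at 0.4, 88.3 and 65.1 at 0.8, and 72.6 and 74.4 FPKM at 8 g/kg in RPF, with both libraries at 0 g/kg below all others. Likewise Eif3k had 24.9 and 55.9 FPKM at 0, 78.6 and 59.5 at 0.4, 72.2 and 113 at 0.8, and 142 and 90 FPKM at 8 g/kg, with both libraries at 0 g/kg lowest. The log2 changes at 0 g/kg were -1.54 ± 0.54 for Eif3i and -1.59 ± 0.51 for Eif3k (SE; limma adjusted p = 0.607 and 0.587). They were -2.32 for Eif3i and -1.01 for Eif3k when the valine-free T-ALL 2 library, with the most neutrophil reads, was left out. Leaving out the valine-free T-ALL 3 library gave -0.77 and -2.16, and no value passed. Eif3k had a trend of 0.52 ± 0.15 log2 per dose step (limma adjusted p = 0.752). Eif3i was low in total RNA of the same libraries too, whereas Eif3k was not, at 0.09 ± 0.17.

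On the higher side stood genes with few reads. Eif1ad had 5 RPF reads at 0 g/kg and 0 in the controls. With the controls set to 3 reads over the group, the ratio corrected for library size was 1.18. Eif4e3, a divergent cap-binding gene, had 9 RPF reads at 0.4 g/kg and 0 in the controls, for a ratio of 1.71. As bounds these ratios cover the controls only, since the 5 and 9 reads were taken as exact and their counting error was left out. At the other doses these 2 genes gave no bound above 1. Eif3l had 111 and 93.5 FPKM at 0, 155 and 120.0 at 0.4, 194 and 186 at 0.8, and 89.1 and 117 FPKM at 8 g/kg in RPF, above both controls at 0.4 and 0.8 g/kg, with a log2 change at 0.8 g/kg of 0.89 ± 0.33 (limma adjusted p = 0.887). Eif4a2 lay at 0.93 ± 0.45 at 0 g/kg (limma adjusted p = 0.777), in the direction of its total RNA.

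All 6 elongation factors had lower RPF means of log2 values at 0.4 than at 8 g/kg, though none passed. The log2 changes at 0.4 g/kg were -0.49 ± 0.33 for Eef1a1, -0.22 ± 0.29 for Eef2, -0.53 ± 0.38 for Eef1g, -0.04 ± 0.56 for Eef1b2, -0.48 ± 0.44 for Eef1d and -3.58 ± 1.54 for Eef1e1 (SE). At 0 g/kg 5 of the 6 were lower and at 0.8 g/kg 3 of the 6. The lowest adjusted p by limma was 0.742 at 0.4 g/kg, for Eef1e1, and the T-ALL 2 control held the highest RPF value of Eef1a1 and Eef1g. Of 81 cytosolic ribosomal proteins tested, 45 were lower in RPF at 0, 60 at 0.4 and 43 at 0.8 g/kg. Their medians were -0.12, -0.39 and -0.04 in the same order. The share of all genes that were lower in RPF was not counted.

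The medians of RPF changes were -0.22, -0.48 and -0.05 for elongation factors at 0, 0.4 and 0.8 g/kg, and 0.05, 0.34 and 0.30 for initiation factors, beside 0.12, 0.08 and 0.30 for all genes. With Eif1ad and Eif4e3 at their bounds the medians of initiation factors were 0.04, 0.14 and 0.22. Elongation minus initiation medians were -0.26, -0.83 and -0.34 as fitted, and -0.26, -0.62 and -0.27 with the bounds. As fitted, the value at 0 g/kg became -0.67 without the T-ALL 3 control and -0.63 without the valine-free T-ALL 3 library. That at 0.4 g/kg became -0.25 without its T-ALL 2 library and -0.46 without the T-ALL 2 control, and that at 0.8 g/kg became -0.66 without the T-ALL 3 control. With each library centred on its median, elongation factors had medians of -0.37, -0.51 and -0.23 and initiation factors -0.11, 0.32 and 0.11, so the initiation median turned at 0 g/kg. Factors above both controls numbered 12 (16.7% of all genes) at 0 g/kg, 8 (15.9%) at 0.4 and 11 (21.5%) at 0.8 g/kg. Those below both numbered 5 (11.7%), 7 (12.7%) and 1 (9.82%). The RPF trend over doses was called for 0 factors and 0.0103% of all genes, with 2 factors at an unadjusted p under 0.05 by limma (5.97% of all genes).

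Translational efficiency (TE), the RPF minus total RNA log2 value of the same diet and T-ALL number, was compared in the same way. Limma called 0 of 49 factors at each dose, against 0.0427% of 9361 genes at 0 g/kg, 0% at 0.4 and 0.0107% at 0.8 g/kg, and 0 factors and 0% of genes for the trend. At an unadjusted p under 0.05 stood 4 factors at 0 g/kg (6.23% of all genes), 2 at 0.4 g/kg (6.07%), 3 at 0.8 g/kg (5.66%) and 3 for the trend (5.68%). Voom called 0 factors in each. Beyond Eif1ad and Eif4e3, with their few reads, these were Eif3k at -1.67 ± 0.59 and Eif3i at -1.06 ± 0.46 at 0 g/kg, Eef1e1 at -3.66 ± 1.48 at 0.4 g/kg, and Eif3l at 0.84 ± 0.36 at 0.8 g/kg (SE). The trend of Eif3k was 0.57 ± 0.17 per dose step (limma adjusted p = 0.79).

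The TE medians for elongation factors were -0.20, -0.41 and -0.12 at 0, 0.4 and 0.8 g/kg, and those for initiation factors 0.21, 0.31 and 0.31. For all genes they were 0.20, 0.14 and 0.36, and for cytosolic ribosomal proteins 0.07, -0.32 and -0.04. With each pair centred on its median, all genes lay at -0.0049, 0.05 and 0.02, elongation factors at -0.41, -0.49 and -0.46 and initiation factors at 0.0048, 0.23 and -0.03, so the sign of the initiation median at 0.8 g/kg rests on the centring. As deposited, the elongation median was 0.10 at 0 g/kg and 0.07 at 0.8 g/kg without the T-ALL 2 control, and -0.53 and -0.52 without the T-ALL 3 control. Of the elongation factors Eef1a1 had TE changes of -0.09 ± 0.30, -0.43 ± 0.30 and -0.12 ± 0.30 (SE) at the 3 doses, Eef2 of -0.05 ± 0.28, -0.07 ± 0.28 and 0.10 ± 0.28, and Eef1b2 of 0.39 ± 0.56, 0.16 ± 0.56 and 0.17 ± 0.56. No one of the 3 had a change beyond its error at 0 g/kg, with 95% intervals of -0.78 to 0.60 for Eef1a1, -0.70 to 0.59 for Eef2 and -0.88 to 1.67 for Eef1b2.

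Other genes of the pathway, from lists drawn up by role, were called in 0 cases at 0 against 8 g/kg as well. Of the regulators of the factors, 0 of 28 were called by limma in total RNA and 0 of 27 in RPF, with medians of -0.25 and 0.05. At an unadjusted p under 0.05 stood 2 higher and 1 lower regulator in total RNA (6.58% of all genes), and 1 higher in RPF (7.17%). Genes listed under termination, recycling and poly(A) binding were called in 0 of 13 in total RNA and 0 of 12 in RPF, with 1 lower and 1 higher at an unadjusted p under 0.05, beside the same shares of all genes. The lower was Mcts2 in total RNA, with 0 and 0 FPKM at 0 g/kg and 4.77 and 2.82 FPKM at 8 g/kg. The higher was Ltv1 in RPF, with 0 FPKM in both controls, although this gene is not itself a termination, recycling or poly(A)-binding factor. Mitochondrial translation factors had 0 of 10 called in either fraction, and 0 at an unadjusted p under 0.05 by limma.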

How the data were processed

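The members and gene lists were chosen with earlier results of these data known. The authors deposited 1 table of FPKM values for 12012 genes in 16 libraries with replicates kept apart, per the file headers. Libraries were made with a ribosome profiling kit, per the labels' protocols, and the submitters' processing notes list edgeR 3.14.0, STAR 2.5.0c, cutadapt 1.18 and Bowtie2 2.3.4, beside the builds GRCm38 and mm10. What each did, how reads were counted and filtered, and the FPKM formula were not given in the sources used here. Deposited FPKM were whole multiples of 1 read per gene length: 100% of 149988 values above 0 came out whole within 0.02 reads. The recovered reads gave the depths and served limma's voom as an alternative. Intervals cover counting error or spread between libraries only.

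The log2(FPKM + 0.5) values of a fraction's 8 libraries entered 1 limma fit (3.58.1, R 4.3.3), restricted to genes averaging at least 1 FPKM, with variance trend, two-sided tests and Benjamini-Hochberg adjustment at 0.05 over all genes. For low genes a fold change on this scale can be too small or too large. With 0 reads in the controls it can far exceed the bound set by the reads. In RPF the fitted log2 change and the bound were 4.99 and 0.77 for Eif4e3 at 0.4 g/kg. For Eif1ad at 0 g/kg they were 4.52 and 0.24. TE and RPF against total RNA used differences within pairs of the same diet and T-ALL number. Both scripts were tested on simulated data. Every member is counted, and libraries are given for a set picked by role, for members past a test or with the smallest p. Promoter sequences and positions are RefSeq's (GRCm38.p6), and 51 of 51 members matched by symbol.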

Additional observations from a re-analysis of the deposited data

How the results depend on the processing

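Alternatives were a pseudocount of 0.1 or 1, no filter or a mean of at least 10 FPKM, voom on recovered reads, no centring or median centring, a replicate block, another grouping of the classes and leaving out 1 library. In the 12 diet comparisons 0 factors were called under every alternative run. For RPF against total RNA, 25 calls (16.5% of all genes) became 24 with the replicate block (15.2%), 29 without centring (4 higher and 25 lower; 20.2%), 33 with voom (27.9%), 23 of 42 at a mean of at least 10 FPKM (24% of all genes) and 17 to 25 with 1 pair left out (7.83% to 16.3%). The replicate numbers were not taken to pair the samples, since the labels leave their meaning unsaid and not every correlation of T-ALL 3 minus T-ALL 2 deviations between diets was over 0.1: 4 of 6 were in total RNA (-0.040 to 0.25) and 0 of 6 in RPF (-0.016 to 0.068). The block changed the call of Eif4a2. Elongation minus initiation medians moved with the libraries left out: from -1.08 to -0.25 in RPF at 0.4 against 8 g/kg, from -0.086 to 0.020 in total RNA at 0 against 8 g/kg, and from 0.00044 to 0.10 at 0.8 against 8 g/kg. The last was 0.047 with Eif5a2 counted as elongation and Eif4a3, Eif6, Eif1ad and Eef1e1 left out. Without the T-ALL 2 control, the change of Eif3g in TE at 0.8 against 8 g/kg turned to 0.11, while without the T-ALL 3 control it was -1.40, and the cause was not tested. Of 1448 single values, 1400 kept direction and side of the threshold and 47 lost their call. All 47 belonged to the 25 factors called for RPF against total RNA, since the values of the diet comparisons had no call to lose. Eif4a2 lost its call in 10 alternatives and Eif2a in 7. Centring shifted the median of all genes from 0.12 to -0.04 in RPF at 0 g/kg and from 0.30 to 0.12 at 0.8 g/kg, and in TE from 0.20 to -0.0049 and from 0.36 to 0.02, so directions there are relative. Whether read depth sets the wider RPF spread was not tested: the median SE of the factors was 0.54 in RPF and 0.18 in total RNA.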
